A study of Mus musculus with 6 samples.

Results

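The genes described here are 35 mouse genes of protein folding, protein degradation and stress signalling in the endoplasmic reticulum (ER), picked by symbol from a fixed list of names. They are 35 of the 55536 genes in a table of liver RNA abundance. By role they were placed in 5 groups. These hold 6 stress sensors and their transcription factors, 11 chaperones and chaperone partners, 6 oxidoreductases, 7 degradation genes, and 5 genes of protein translocation and export. All 35 passed the filter for testing, which asked for at least 1 TPM (transcripts per fixed total, an abundance corrected for transcript length) in at least 3 libraries and left 12796 genes. Derl3 was the only member below 1 TPM in any library.

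Bulk RNA came from livers of C57BL/6 mice aged 8 to 10 weeks, and all of them carried floxed Vmp1 alleles. Vmp1 encodes vacuole membrane protein 1, an ER membrane protein known for its part in autophagy and lipid handling. The 3 control libraries came from mice given AAV8-TBG-null, a viral vector with the liver-directed TBG promoter and no Cre, and the 3 libraries of the other group from mice given AAV8-TBG-cre, which drives Cre recombinase in hepatocytes. Both viruses were given intravenously 2 weeks before the livers were taken, so the controls share the floxed alleles and the virus type, and liver cells other than hepatocytes are not the target. The labels do not say that each library is a separate animal, so p-values measure only the spread between these libraries, which may be technical.

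The ER folds secreted and membrane proteins, and hepatocytes are known for a heavy load of both. Proteins enter through a translocation channel, are bound by chaperones, gain disulfide bonds from oxidoreductases, and are sent back to the cytosol for destruction if they do not fold. The unfolded protein response, run by the ER membrane sensors IRE1, PERK and ATF6, is known to raise transcription of this machinery when unfolded protein builds up, and 2 of the arms do so through the transcription factors XBP1 and ATF6.

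The DNA element that gives many of these genes their shared response is short enough to show. The ER stress element has the letters CCAAT, then 9 bases of any kind, then CCACG. A 300-base window of each gene, from 250 bases before the transcription start through 50 bases from the start on, was searched on both strands, with RefSeq sequences of build GRCm38.p6. Of the 35 members, 30 had an entry, and 10 of those 30 (33.3%) held the element, against 37 of all 27025 genes in the same table (0.137%). Only the 19 bases of each match are shown, in the element's own direction, because they let the 11 copies in the 10 genes be compared. Capitals mark the searched letters and lower case the 9 free bases.
Hspa5: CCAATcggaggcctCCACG
Hsp90b1, far copy: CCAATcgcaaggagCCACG
Hsp90b1, near copy: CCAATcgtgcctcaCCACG
Calr: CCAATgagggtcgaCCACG
Canx: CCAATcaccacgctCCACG
Dnajc3: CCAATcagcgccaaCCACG
Creld2: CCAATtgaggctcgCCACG
Pdia6: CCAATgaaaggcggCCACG
Ero1lb: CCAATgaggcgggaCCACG
Syvn1: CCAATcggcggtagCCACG
Derl3: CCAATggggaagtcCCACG

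A second form of the element, ATTGG, 1 base of any kind and CCACG, was found in Herpud1 and Dnajb11, 2 of 30 members (6.67%), against 0.0444% of all genes. The core of the XBP1 site, TGACGTG, was found in Hspa5, Txndc5 and Sec24d, 3 of 30 members (10.0%), against 2.22% of all genes. Txndc5 had more than 1 window, and not all of them held the core. With the 3 motifs pooled, 14 of 30 members (46.7%) held at least 1, against 2.39% of all genes, and no match of 1 motif overlapped a match of another. By role, 6 of 9 chaperones, 2 of 6 oxidoreductases and 2 of 6 degradation genes with an entry held the first form, and none of 5 sensors or 4 translocation genes did. Atf6, Derl1, Hyou1, Manf and Sec61a1 had no entry.

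**Figure D1:**
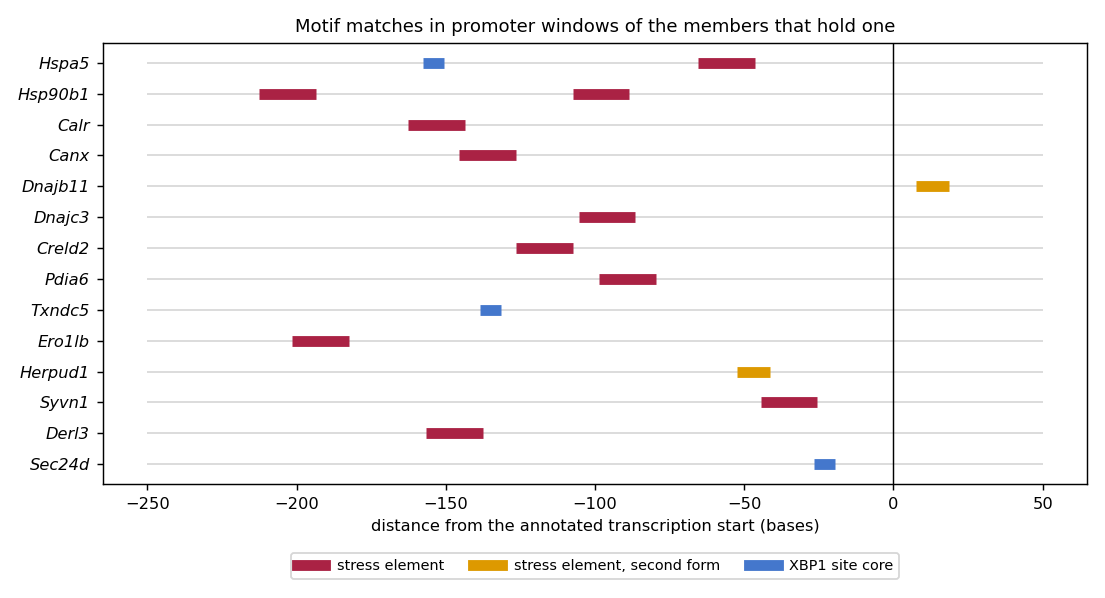
Positions of the motif matches in the 14 members that hold one. The x axis is the distance in bases from the annotated transcription start of the window with the match. Each grey line spans the 300 bases searched around that start. Each coloured block is 1 match: the stress element, its second form or the XBP1 core. Hspa5 and Hsp90b1 are the only members with 2 blocks, and the block of Dnajb11 is the only one after the start.

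For 4 members that the results below turn on, the 250 bases before the RefSeq start are given on the gene's own strand, with matches in capitals. Hspa5 and Hsp90b1 moved apart in the livers while each holds the element, and Herpud1 and Ero1lb had the largest decreases among the called members. Gene positions given elsewhere in the text are from GENCODE, where Hspa5 starts at chr2:34771970, within its window below. By GENCODE its stress element (chr2:34772025-34772043) thus lies inside the gene. Hsp90b1 and Ero1lb also start within their windows by GENCODE, with their elements before that start.
Hspa5, chr2:34771840-34772089, plus strand: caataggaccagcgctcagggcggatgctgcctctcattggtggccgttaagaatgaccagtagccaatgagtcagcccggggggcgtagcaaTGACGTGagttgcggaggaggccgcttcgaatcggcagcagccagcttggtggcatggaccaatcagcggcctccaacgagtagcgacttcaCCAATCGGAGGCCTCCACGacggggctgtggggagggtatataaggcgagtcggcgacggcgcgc
Hsp90b1, chr10:86705445-86705694, minus strand: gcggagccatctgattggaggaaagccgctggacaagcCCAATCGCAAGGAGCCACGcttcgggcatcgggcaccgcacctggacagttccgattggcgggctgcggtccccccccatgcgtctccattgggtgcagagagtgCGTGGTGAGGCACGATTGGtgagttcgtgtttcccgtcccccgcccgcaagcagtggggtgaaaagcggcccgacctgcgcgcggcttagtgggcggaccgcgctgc
Herpud1, chr8:94386179-94386428, plus strand: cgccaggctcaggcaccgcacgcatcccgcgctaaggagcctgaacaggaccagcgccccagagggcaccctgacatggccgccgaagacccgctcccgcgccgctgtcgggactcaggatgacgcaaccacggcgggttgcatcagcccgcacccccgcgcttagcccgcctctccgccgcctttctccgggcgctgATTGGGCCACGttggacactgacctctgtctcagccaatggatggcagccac
Ero1lb, chr13:12565633-12565882, plus strand: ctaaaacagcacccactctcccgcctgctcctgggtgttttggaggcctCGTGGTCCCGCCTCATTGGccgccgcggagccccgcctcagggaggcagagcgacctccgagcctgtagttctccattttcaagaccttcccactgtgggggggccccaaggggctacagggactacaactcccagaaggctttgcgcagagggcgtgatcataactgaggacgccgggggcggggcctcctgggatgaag
The copy in Ero1lb and the near copy in Hsp90b1 lie in the reverse direction, so in these lines they read from CGTGG to ATTGG.

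RNA of the targeted gene was not called lower in the Cre group, as deposited or after scaling. Vmp1 read 70.7, 96.5 and 88.6 TPM in controls against 157, 136 and 137 TPM in the Cre group, so the libraries are called the labelled knockout. The Vmp1 log2 fold change was 0.75 (adjusted p = 0.00038) as deposited and -0.18 (adjusted p = 0.2) after median-of-ratios scaling, which sets the typical gene of each library to the same level. A gene-level value counts transcripts that lack floxed exons too, so it does not check the deletion. The summed share of the major urinary protein (Mup) genes was 16.9 ± 4.85% of TPM (SD, n = 3) in controls and 0.410 ± 0.117% in the labelled knockout. Each library has the same TPM total. The median tested gene stood 0.77 higher in log2(TPM + 1), and limma called 74.5% of all tested genes higher and 10.7% lower at an adjusted p under 0.05. The scaling moved this median to -0.01 and the shares called to 35.1% higher and 36.6% lower. Albumin and the other hepatocyte markers were abundant in every library. Their summed level was 52570 to 72850 TPM in controls against 26790 to 30150 TPM in the labelled knockout, 9 of 12 being called lower as deposited and 12 of 12 after scaling. Macrophage markers were called higher in 12 of 12 cases (94.8 to 155 TPM summed, then 1030 to 1340 TPM), as were 9 of 9 endothelial and 10 of 10 stellate markers. After scaling these counts were 12, 6 and 9, beside 35.1% of all tested genes. The part of these shifts in the results below was not tested, and in bulk liver fewer cells of a type and less RNA per cell cannot be told apart.

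As deposited, 20 of the 35 ER members (57.1%) were called higher in the labelled knockout and 5 (14.3%) lower, and 10 did not pass the test. These shares stand beside 74.5% and 10.7% of all tested genes. The median member stood 0.30 higher in log2(TPM + 1), below the 0.77 of all tested genes, and 29 of the 35 members lay below that median. After median-of-ratios scaling, 1 member (2.86%) was called higher and 28 (80.0%) lower, beside 35.1% and 36.6% of all tested genes, and the median member stood at -0.61. Quantile normalization, which gives every library the same distribution, called 3 members (8.57%) higher and 20 (57.1%) lower, beside 35.3% and 35.4%. As a set the members therefore sat low within the shift of the whole table under each of these scalings, while the sign of most of them depended on the scaling. The groups were not alike in this. As deposited, 10 of 11 chaperones, 6 of 6 oxidoreductases and 6 of 7 degradation genes lay below the median of all tested genes. The same held for 4 of 5 translocation genes and 3 of 6 sensors. Under quantile normalization the median translocation gene stood at 0.011 and the median sensor at -0.04, beside -0.0057 for all tested genes. Of the 20 called higher as deposited, 1 was also higher after median-of-ratios scaling, 6 were not called and 13 were called lower. Control and labelled knockout values did not overlap for 25 of 35 members (71.4%), beside 86.8% of all tested genes.

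A few members gave the same call under all 4 scalings used, the fourth being a rescaling without the most abundant genes. Atf6b was higher in each. Hsp90b1, Calr, Sdf2l1, Ero1lb and Herpud1 were lower in each. The rest of the text takes the groups in turn and sets the fold change after median-of-ratios scaling beside the one as deposited. Counts in each group are read against the shares of all tested genes, 74.5% higher and 10.7% lower as deposited and 35.1% and 36.6% after scaling.

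**Figure D2:**
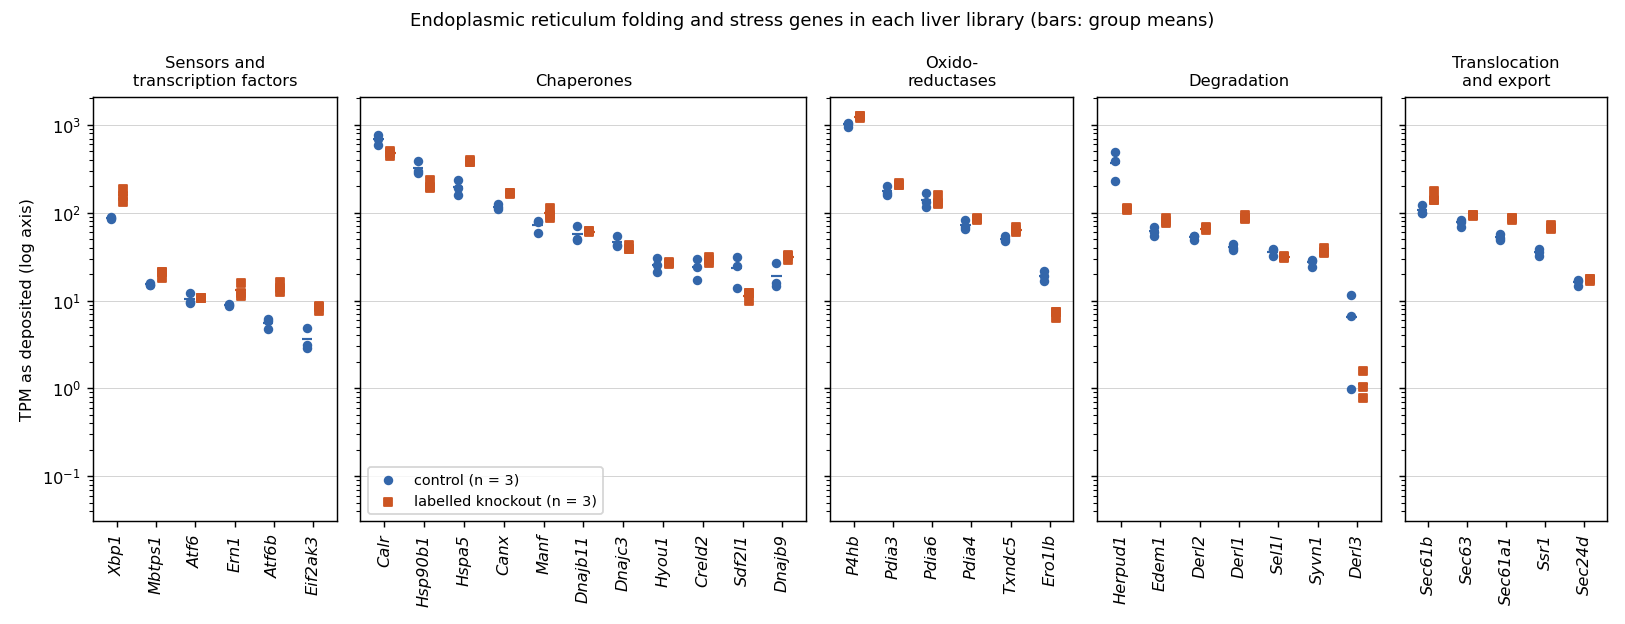
Level of each of the 35 members in every library, by role. The y axis is TPM as deposited on a log scale, blue circles are the 3 control libraries, orange squares the 3 labelled knockout libraries and bars the group means. Hspa5 and Hsp90b1 exchange their order between the groups, the labelled knockout squares of Herpud1 and Ero1lb lie below every control, and Derl3 spans the widest range of any member among the controls.

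Of the stress sensors and their transcription factors, 5 of 6 were called higher as deposited and 0 lower (limma, also 0 at an unadjusted p under 0.05). The 5 of 6 (83.3%) are near the 74.5% of all tested genes. After median-of-ratios scaling 1 of 6 was higher and 3 were lower, beside 35.1% and 36.6%. Xbp1 encodes the transcription factor whose mRNA IRE1 splices during ER stress. It was at 89.4, 88.0 and 84.7 TPM in controls against 188.5, 131 and 157 TPM in the labelled knockout. The groups did not overlap, and the labelled knockout libraries were more scattered than the controls. Its log2 fold change was 0.84 ± 0.13 (SE; adjusted p = 0.00021) as deposited and -0.10 (adjusted p = 0.46) after scaling. The table has 1 value per gene, so spliced and unspliced Xbp1 mRNA were not measured apart.

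Atf6 and Atf6b encode related ER membrane transcription factors that are released by cleavage in the Golgi. Atf6b (chr17:34647146-34655074) was at 5.86, 6.13 and 4.72 TPM in controls against 16.5, 12.4 and 13.8 TPM in the labelled knockout, every labelled knockout library above every control. The log2 fold change was 1.21 ± 0.13 (adjusted p = 1.7e-05) as deposited and 0.37 ± 0.10 (adjusted p = 0.011) after scaling. Atf6 was at 9.31, 12.1 and 9.56 TPM in controls against 10.6, 10.8 and 10.8 TPM in the labelled knockout. Those groups overlapped, with a log2 fold change of 0.06 ± 0.11 (adjusted p = 0.65) as deposited, and Atf6 was called lower after scaling (-0.80, adjusted p = 0.00013). Within a library the Atf6 to Atf6b ratio went from 1.86 ± 0.239 to 0.764 ± 0.114, so Atf6 was the more abundant of the pair in each control and Atf6b in each labelled knockout library.

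The kinase sensors were both called higher as deposited. Eif2ak3, which encodes PERK, the kinase that slows translation under ER stress, was at 2.90, 4.81 and 3.10 TPM in controls against 7.52, 8.75 and 8.35 TPM in the labelled knockout. Its log2 fold change was 1.02 ± 0.15 (adjusted p = 0.00017) as deposited and 0.23 (adjusted p = 0.19) after scaling. Ern1, which encodes IRE1 alpha, was at 8.73, 8.98 and 9.07 TPM in controls against 16.01, 11.4 and 12.1 TPM in the labelled knockout. The controls were nearly alike, with a coefficient of variation of 1.97%, and all labelled knockout values were above them. For Ern1 the log2 fold change was 0.50 ± 0.13 (adjusted p = 0.0049) as deposited, and it was called lower after scaling (-0.37, adjusted p = 0.019). Mbtps1, the site-1 protease that cleaves ATF6, likewise changed sign, from 0.37 ± 0.10 (adjusted p = 0.0058) to -0.52 (adjusted p = 0.00035).

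Among the 11 chaperones and partners, 4 were called higher and 3 lower as deposited, and 0 higher (limma, also 0 at an unadjusted p under 0.05) and 9 lower after median-of-ratios scaling. The 4 of 11 (36.4%) called higher stand beside 74.5% of all tested genes, and the 3 of 11 (27.3%) lower beside 10.7%. Well-known targets of the unfolded protein response were thus found on both sides as deposited. Hspa5 (chr2:34771970-34777547) encodes BiP, the main HSP70 chaperone of the ER and the inhibitor that holds the stress sensors inactive. It was at 159, 234 and 193 TPM in controls against 378, 393 and 379 TPM in the labelled knockout. The labelled knockout libraries were close to each other and all above the highest control, with a log2 fold change of 0.99 ± 0.14 (adjusted p = 0.00011). After scaling the difference was 0.04 ± 0.13 (adjusted p = 0.78), while quantile normalization gave 0.62 (adjusted p = 0.0011).

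Hsp90b1 (chr10:86690209-86705509) encodes GRP94, the HSP90 chaperone of the ER, which takes over clients from BiP. It was at 299.8, 287 and 387 TPM in controls against 194, 236 and 198 TPM in the labelled knockout. No labelled knockout library reached the lowest control. The log2 fold change was -0.62 ± 0.14 (adjusted p = 0.0021) as deposited and -1.56 ± 0.18 (adjusted p = 0.00014) after scaling. The Hspa5 to Hsp90b1 ratio, which a scaling factor per library cannot alter, was 0.531, 0.815 and 0.4999 in the controls and 1.95, 1.67 and 1.91 in the labelled knockout. It was thus below 1 in each control and above 1 in each labelled knockout library, 2.996 times higher on the group means (two-sided exact permutation p = 0.1, the smallest that 3 against 3 libraries allow; 0.114 adjusted over 8 ratios).

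The lectin chaperones calreticulin and calnexin, which hold glycoproteins with a trimmed sugar chain, also went apart as deposited. Calr, the soluble one, was at 685, 597 and 775 TPM in controls against 439, 509.7 and 474 TPM in the labelled knockout. The log2 fold change of Calr was -0.52 ± 0.13 (adjusted p = 0.0035), and -1.47 (adjusted p = 9.9e-05) after scaling. Canx, the membrane-bound one, was at 111, 124 and 117 TPM in controls against 167, 162 and 169 TPM in the labelled knockout. Canx was called higher as deposited (0.49 ± 0.09, adjusted p = 0.00068) and lower after scaling (-0.44, adjusted p = 0.0013). Both are abundant ER proteins, and each had groups that did not overlap.

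Sdf2l1, which encodes a partner of the ER HSP40 proteins, was at 24.4, 13.95 and 31.3 TPM in controls against 12.2, 12.1 and 9.87 TPM in the labelled knockout. Its log2 fold change was -0.90 ± 0.28 (adjusted p = 0.019) as deposited and -1.78 (adjusted p = 0.0023) after scaling. The lowest control lay close to the labelled knockout values. The call was lost without control 1 and without each labelled knockout library, with adjusted p up to 0.075.

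The HSP40 co-chaperones of BiP were not alike either. Dnajb9, which encodes ERdj4, was at 15.8, 26.7 and 14.5 TPM in controls against 28.8, 31.8 and 33.3 TPM in the labelled knockout. Dnajb9 was called higher as deposited (0.74 ± 0.21, adjusted p = 0.01) and not called after scaling (-0.17, adjusted p = 0.44). Dnajb11, which encodes ERdj3, had a log2 fold change of 0.13 (adjusted p = 0.39), and Dnajc3, the inhibitor P58, one of -0.19 (adjusted p = 0.16). Both were called lower after scaling, at -0.80 and -1.12.

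Hyou1, the nucleotide exchange factor of BiP, was at 25.7 ± 4.55 TPM in controls and 26.6 ± 0.709 TPM in the labelled knockout (adjusted p = 0.64), and was called lower after scaling (-0.84). Creld2 gave 0.30 ± 0.18 (adjusted p = 0.15) and was called lower after scaling (-0.61, adjusted p = 0.026), and without control 3 it was called higher (0.47, adjusted p = 0.023). Manf, a secreted stress protein that binds BiP, was called higher as deposited (0.44 ± 0.14, adjusted p = 0.017) and lower after scaling (-0.50, adjusted p = 0.026). The Manf call was lost without control 1 and without labelled knockout 2, and its annotated exons overlap those of Rbm15b and Dcaf1. Rbm15b lies on the same strand as Manf, so there the strand of a read cannot tell the 2 genes apart. Dcaf1 lies on the opposite strand, and the strand setting of the quantification is not given in the sources used here. It is therefore uncertain to which of 2 overlapping genes a read belongs.

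**Figure D3:**
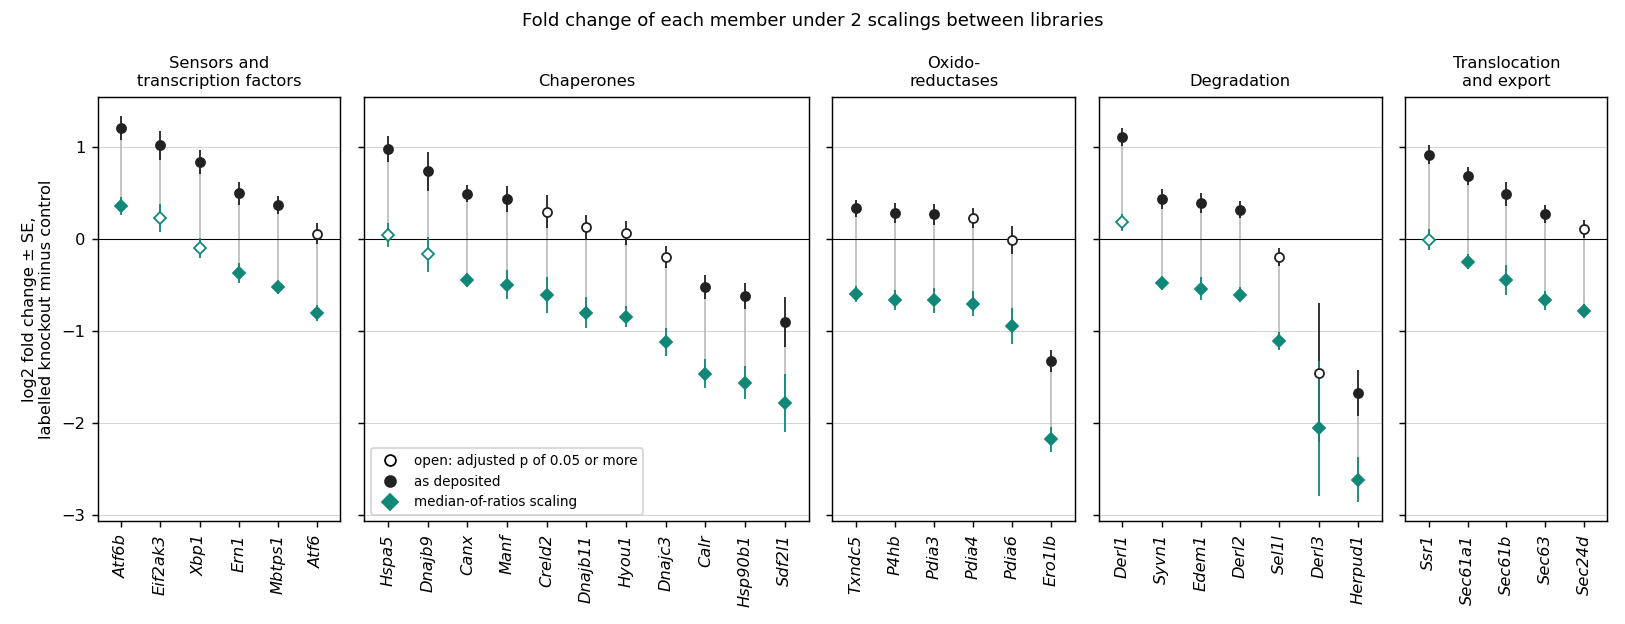
Fold change of each member under 2 scalings. The y axis is the log2 fold change, labelled knockout minus control, on log2(TPM + 1), with bars of 1 SE. Black circles are values as deposited, green diamonds values after median-of-ratios scaling, and open symbols have an adjusted p of 0.05 or more. Every diamond lies below its circle, most circles above 0 turn into diamonds below 0, Atf6b is the only filled diamond above 0, and Herpud1 and Ero1lb have the lowest diamonds.

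Of the 6 oxidoreductases, 3 were called higher and 1 lower as deposited, and all 6 lower after median-of-ratios scaling with 0 higher (limma, also 0 at an unadjusted p under 0.05). Beside them stand 74.5% and 10.7% of all tested genes, and 36.6% lower after scaling. P4hb, the most abundant member of all and the classical protein disulfide isomerase, was at 956, 1034 and 1056 TPM in controls against 1184, 1255 and 1265 TPM in the labelled knockout. Its log2 fold change was 0.28 ± 0.11 (adjusted p = 0.036) as deposited and -0.66 (adjusted p = 0.00098) after scaling. Pdia3, which encodes ERp57 and works with the lectin chaperones, gave 0.27 ± 0.11 (adjusted p = 0.048) and -0.67. These calls were weak as deposited. That of P4hb was lost without control 1, control 3 or any labelled knockout library, and that of Pdia3 in 5 of the 6 fits that leave out 1 library. In 4 of those 6 fits Txndc5 was the only oxidoreductase called higher.

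Txndc5, also a disulfide isomerase, was at 50.5, 54.0 and 48.0 TPM in controls against 60.7, 68.3 and 64.0 TPM in the labelled knockout (0.33 ± 0.09, adjusted p = 0.008; -0.59 after scaling). Pdia4 gave 0.23 (adjusted p = 0.072) and Pdia6 -0.01 (adjusted p = 0.95), with overlapping groups for both. After scaling both were called lower, at -0.70 (adjusted p = 0.0022) and -0.95 (adjusted p = 0.0038). As deposited, Pdia4 was called higher without control 3 (0.33, adjusted p = 0.017).

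Ero1lb (chr13:12565874-12611396) encodes ERO1 beta, an oxidase that recharges protein disulfide isomerases. It was at 16.7, 19.3 and 21.7 TPM in controls against 6.35, 7.46 and 7.33 TPM in the labelled knockout. The groups were far apart, with a log2 fold change of -1.33 ± 0.12 (adjusted p = 5e-06) as deposited and -2.18 ± 0.13 (adjusted p = 6e-06) after scaling. Its relative Ero1l, the hypoxia-responsive ERO1 alpha and not itself a member, went the other way, from 4.48, 6.07 and 5.45 TPM to 18.3, 15.3 and 18.1 TPM (1.53, adjusted p = 2.7e-06; 0.68 after scaling). The Ero1lb to Ero1l ratio was 3.74, 3.17 and 3.99 in controls and 0.348, 0.488 and 0.406 in the labelled knockout (exact permutation p = 0.1). Ero1lb was the more abundant oxidase in each control and Ero1l in each labelled knockout library.

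The 7 degradation genes held the largest decrease and one of the largest increases among the members, with 4 called higher and 1 lower as deposited; median-of-ratios scaling gave 0 higher (limma, also 0 at an unadjusted p under 0.05) and 6 lower. The 4 of 7 (57.1%) higher and 1 of 7 (14.3%) lower stand beside 74.5% and 10.7% of all tested genes. Herpud1 (chr8:94386438-94395377) encodes an ER membrane protein with a ubiquitin-like domain that assembles the HRD1 degradation complex. It was at 232, 486 and 392 TPM in controls against 107, 112 and 109.6 TPM in the labelled knockout. The controls differed widely among themselves, the labelled knockout libraries were nearly equal, and the lowest control was above them all. The log2 fold change was -1.68 ± 0.25 (adjusted p = 0.00044) as deposited and -2.62 ± 0.25 (adjusted p = 7.9e-05) after scaling.

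Herpud1 also set the sum of its group. Summed degradation TPM went from 594 ± 140.0 to 414 ± 6.79, a log2 ratio of -0.52 with groups that did not overlap (exact permutation p = 0.1). Most other genes of the group were nevertheless higher as deposited. After median-of-ratios scaling the sum went from 817 ± 181 to 297 ± 16.3, a log2 ratio of -1.46, again without overlap. The summed degradation to summed chaperone ratio went from 0.374 ± 0.0901 to 0.271 ± 0.0108.

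The derlins are ER membrane proteins that pass misfolded proteins to the cytosol, and the 3 family members are given in turn. Derl1 was at 37.2, 44.4 and 39.4 TPM in controls against 85.0, 93.5 and 86.3 TPM in the labelled knockout, with a log2 fold change of 1.11 ± 0.10 (adjusted p = 5e-06) as deposited. After scaling Derl1 was at 0.19 (adjusted p = 0.11), and quantile normalization gave 0.45 (adjusted p = 0.0018). Derl2 was called higher as deposited (0.32 ± 0.09, adjusted p = 0.0081) and lower after scaling (-0.61, adjusted p = 0.00032).

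Derl3, a derlin induced by ER stress, was at 6.63, 0.97 and 11.7 TPM in controls against 1.56, 0.77 and 1.04 TPM in the labelled knockout. Control 2 lay among the labelled knockout values, and the other controls lay above all of them. The log2 fold change was -1.45 ± 0.75 (adjusted p = 0.13), so Derl3 was not called as deposited, and without control 2 it was -2.23 (adjusted p = 0.00019). Derl3 was called lower under the other 3 scalings, at -2.06 (adjusted p = 0.043) after median-of-ratios scaling, -2.29 (adjusted p = 0.023) after quantile normalization and -1.89 (adjusted p = 0.039) after rescaling. The Derl3 to Derl1 ratio was 0.179, 0.0219 and 0.296 in controls and 0.0184, 0.00824 and 0.0121 in the labelled knockout, still without overlap.

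Syvn1 encodes HRD1, the ubiquitin ligase at the centre of this pathway, and Sel1l its adaptor. Syvn1 was at 29.0, 28.3 and 24.1 TPM in controls against 40.1, 34.9 and 36.1 TPM in the labelled knockout (0.44 ± 0.11, adjusted p = 0.0035; -0.48 after scaling). Sel1l was at 36.0 ± 3.65 TPM in controls and 31.3 ± 0.968 TPM in the labelled knockout (-0.19, adjusted p = 0.1), and was called lower after scaling (-1.11, adjusted p = 3.4e-05). Edem1, a lectin that picks glycoproteins for degradation, was called higher as deposited (0.39 ± 0.11, adjusted p = 0.0074) and lower after scaling (-0.54, adjusted p = 0.0053). The exons of Syvn1 overlap those of Mrpl49, and those of Derl2 overlap Mis12, both on the opposite strand. Their single values therefore carry the same uncertainty as Manf with Dcaf1. The genes that overlap Hsp90b1 exons were at 5.54 TPM or less.

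Genes of translocation and export were called higher in 4 of 5 cases as deposited and lower in 0 (limma, also 0 at an unadjusted p under 0.05), whereas 4 of 5 were called lower after median-of-ratios scaling and 0 higher. The 4 of 5 (80.0%) called higher are near the 74.5% of all tested genes. Ssr1, a subunit of the translocon-associated protein complex, was at 36.1, 32.2 and 38.9 TPM in controls against 73.1, 66.8 and 65.6 TPM in the labelled knockout. Its log2 fold change was 0.92 ± 0.10 (adjusted p = 2e-05) as deposited and -0.0043 (adjusted p = 0.98) after scaling, so Ssr1 moved by about as much as the typical gene. Sec61a1, the pore of the channel, gave 0.69 ± 0.10 (adjusted p = 9.9e-05) and -0.24 (adjusted p = 0.032). Sec61b, a small subunit of the same channel, gave 0.49 ± 0.13 (adjusted p = 0.0055) and -0.45 (adjusted p = 0.039).

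Sec63, which recruits BiP to the channel, was at 69.6, 79.1 and 83.6 TPM in controls against 92.0, 93.4 and 94.6 TPM in the labelled knockout. Its call as deposited (0.27 ± 0.10, adjusted p = 0.027) was lost without control 1 and without labelled knockout 1 or 3, and Sec63 was lower after scaling (-0.66). Sec24d, a coat protein of the vesicles that leave the ER, was at 16.1 ± 1.2045 TPM in controls and 17.4 ± 0.471 TPM in the labelled knockout (0.11, adjusted p = 0.3), and was called lower after scaling (-0.78, adjusted p = 5.5e-05).

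Summed by group, sensor TPM went from 131 ± 4.87 to 225 ± 33.9, oxidoreductase TPM from 1474 ± 97.5 to 1741 ± 61.1 and translocation TPM from 289 ± 20.7 to 415 ± 20.5, each without overlap (exact permutation p = 0.1, 0.125 adjusted over 5 sums). After median-of-ratios scaling the log2 ratios of these sums were -0.17, -0.71 and -0.42, and those of the sensors overlapped. Chaperone TPM was 1590 ± 161.6 in controls against 1530 ± 76.6 in the other group, with overlapping groups (exact permutation p = 0.7). After scaling the chaperone log2 ratio was -1.004, and the groups did not overlap. The 35 members together held 0.408 ± 0.0353% of all TPM in controls against 0.433 ± 0.0122% in the labelled knockout (exact permutation p = 0.3). After scaling the summed level of the 35 members was 5136, 5299 and 6480 in controls against 2899, 3332 and 3078 in the labelled knockout, without overlap, so the overlap of the total holds only as deposited.

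**Figure D4:**
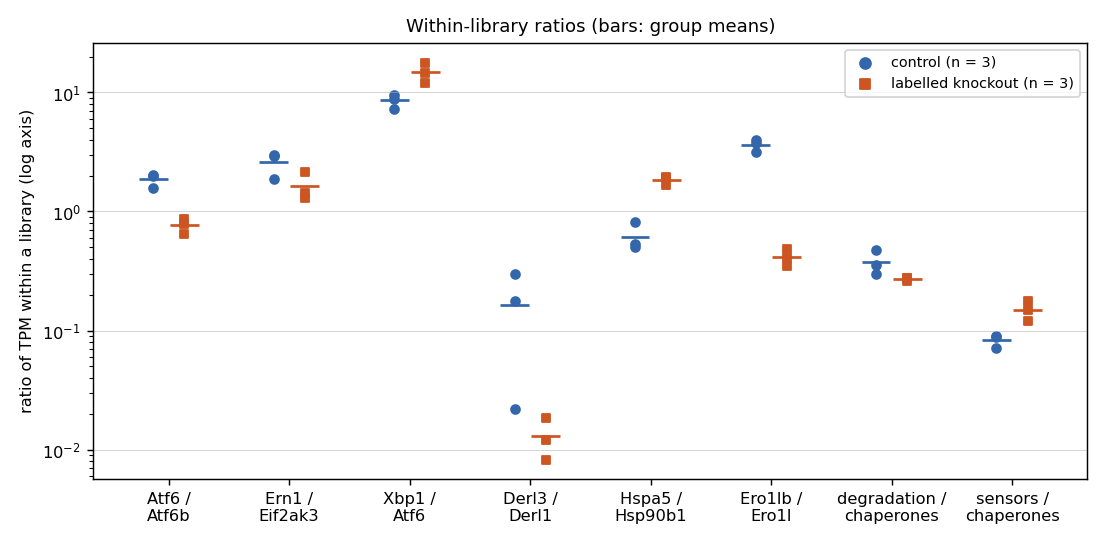
Ratios of TPM values within each library, on a log axis, which a scaling factor per library cannot alter. Blue circles are the 3 control libraries, orange squares the 3 labelled knockout libraries and bars the group means. Of the 8 ratios, Ern1 to Eif2ak3 is the only one whose groups overlap, and Derl3 to Derl1 and Ero1lb to Ero1l are lowered most in the labelled knockout.

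Of the 8 ratios, 7 had groups that did not overlap, each at the smallest two-sided exact permutation p of 0.1 (0.114 adjusted). Taken singly, 86.8% of all tested genes had groups that did not overlap as deposited. No such share was taken for ratios of other genes, so the count is not a result about these ratios. The Xbp1 to Atf6 ratio went from 8.58 ± 1.19 to 14.8 ± 2.87, so Xbp1 gained on Atf6 in every labelled knockout library over every control. The summed sensor to summed chaperone ratio went from 0.0832 ± 0.0105 to 0.148 ± 0.0292. Ern1 to Eif2ak3 was 2.601 ± 0.637 in controls and 1.63 ± 0.443 in the labelled knockout, with overlapping groups (exact permutation p = 0.2).

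Ranks within a library, taken as percentiles of the tested genes, do not depend on the scaling either. Ero1lb went from a mean percentile of 74.9 to 37.2, Sdf2l1 from 76.6 to 49.8 and Derl3 from 44.1 to 3.57. Herpud1 went from 97.8 to 91.3. Hspa5 went from 96.2 to 97.4, Derl1 from 85.8 to 89.2 and Atf6b from 47.2 to 55.4. In all, 24 of 35 members had a lower mean percentile in the labelled knockout. The share of all tested genes with a lower percentile was not taken, so the count is not a result about the members. More genes with high values in the labelled knockout lower the percentile of every gene that kept its TPM, so these ranks describe position in the library and not amount.

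**Figure D5:**
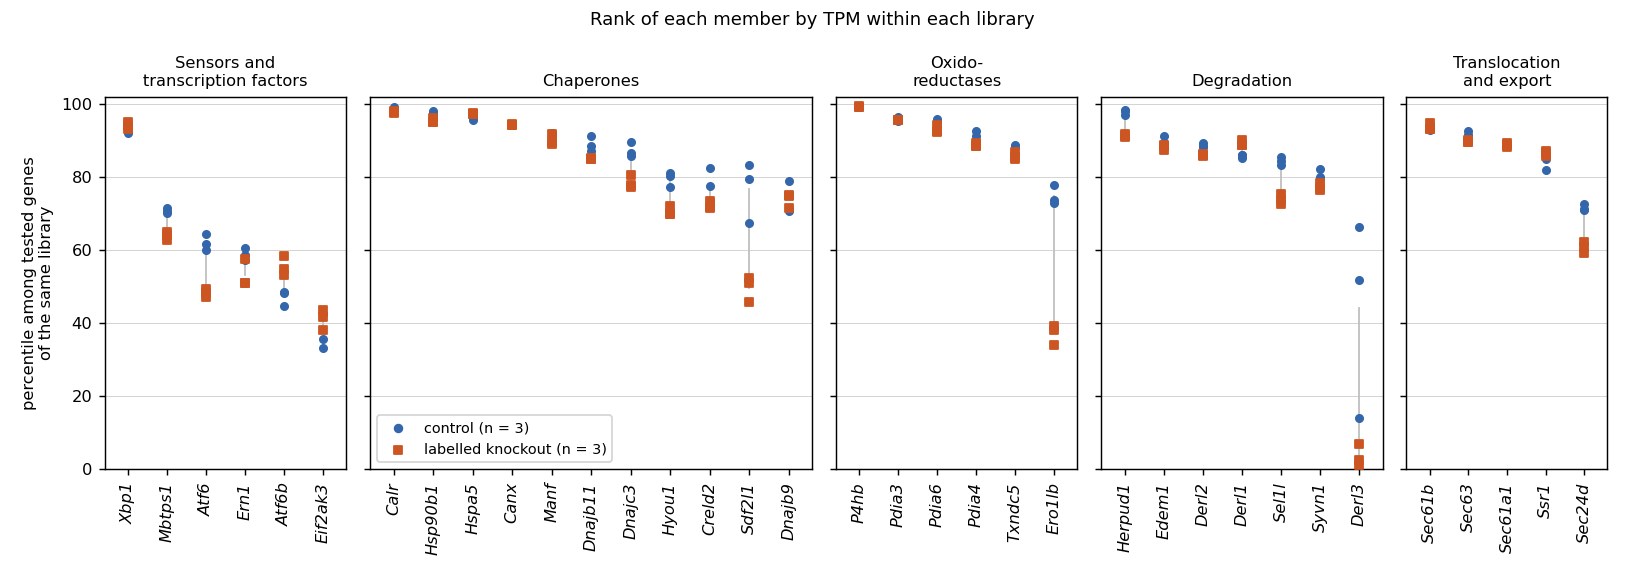
Rank of each member by TPM within each library, as a percentile among the 12796 tested genes. Blue circles are the 3 control libraries, orange squares the 3 labelled knockout libraries, and grey lines join the group means. The squares of Ero1lb, Sdf2l1, Sel1l, Sec24d and Atf6 lie below every circle, those of Derl1 and Atf6b lie above, and P4hb stays at a mean percentile of 99.2 in both groups.

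Members holding the stress element were not called in 1 direction. As deposited, 3 of the 10 holders were called higher (Hspa5, Canx and Syvn1), 3 lower (Hsp90b1, Calr and Ero1lb) and 4 not (Creld2, Derl3, Dnajc3 and Pdia6), with a median log2 fold change of -0.10. Of the 20 members with an entry but without the element, 14 were called higher and 2 lower, with a median of 0.33. These 20 include Herpud1 and Dnajb11, which hold the second form, and Txndc5 and Sec24d, which hold the XBP1 core. Herpud1 was 1 of the 2 called lower. The 14 of 20 are near the 74.5% of all tested genes called higher, and 10.7% of all were called lower. After median-of-ratios scaling, 9 of 10 holders and 15 of 20 others were called lower, with medians of -1.03 and -0.60, beside 36.6% of all tested genes. The element stands in the windows of both Hspa5, the chaperone with the largest increase as deposited, and Hsp90b1, which was lower under all 4 scalings. Only exact matches were counted, so a near match was taken as no match. A match describes the sequence and is not a measured binding site.

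The controls themselves differed in these genes. The coefficient of variation was larger in controls than in the labelled knockout for 30 of 35 members (85.7%), beside 62.6% of all tested genes, and its median over members was 13% against 6.39%. Control 3 held the highest control value for 17 of 35 members (48.6%), beside 13.1% of all tested genes. Hsp90b1, Calr, Sdf2l1, Pdia3, Pdia4, Pdia6, Dnajb11, Derl3 and Ssr1 were each highest in control 3 and lowest in control 2. Control 2 held the highest control value for 16 of 35 members, a smaller share than the 60.2% of all tested genes. Herpud1, Dnajb9, Eif2ak3, Hspa5 and Hyou1 were among these 16 members. Mup genes held 11.6% of TPM in control 2, against 17.9% and 21.2% in controls 1 and 3, and a link to these values was not tested. Without control 3, the summed chaperone log2 ratio was 0.03 in place of -0.06, and members called higher numbered 22 in place of 20.

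Genes of the same pathways outside the 35 were taken from 5 lists, whose counts stand beside the same shares of all tested genes, 74.5% higher and 10.7% lower as deposited and 35.1% and 36.6% after scaling. Of 33 tested genes of other folding functions, 22 were called higher and 2 lower as deposited, and 7 higher and 20 lower after median-of-ratios scaling. Pdia5, a disulfide isomerase, was at 40.2, 46.2 and 44.2 TPM in controls against 16.04, 20.9 and 14.1 TPM in the labelled knockout (-1.32, adjusted p = 1.4e-05; -2.23 after scaling). Prdx4, an ER peroxiredoxin, was also lower (-0.80, adjusted p = 0.0044; -1.72 after scaling). Dnajc10, a reductase of the degradation route, was at 5.56 ± 0.356 TPM in controls and 19.1 ± 0.260 TPM in the labelled knockout (1.61, adjusted p = 3.7e-07; 0.76 after scaling), and Dnajc1 was also higher under both scalings (1.48 and 0.58).

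Of 32 other degradation genes, 24 were called higher and 3 lower as deposited, close to the shares of all tested genes, and 7 higher and 15 lower after median-of-ratios scaling. The ubiquitin ligase genes March6 (-0.58, adjusted p = 0.00028) and Rnf5 (-0.35, adjusted p = 0.0044) were lower, as was Erlin1 (-0.35, adjusted p = 0.024), and all 3 were lower after scaling too. Ubxn8 (1.48), Ubxn4 (1.37) and the conjugating enzyme gene Ube2j1 (1.29) were higher, and all 3 were higher after scaling too. Of 31 translocation and glycosylation genes, 26 were called higher and 0 lower as deposited (limma, adjusted p under 0.05), and 6 higher and 10 lower after scaling. Srp19, of the signal recognition particle, went from 25.6 ± 2.15 to 86.7 ± 3.97 TPM (1.72, adjusted p = 3.2e-07; 0.80 after scaling). Tusc3, of the oligosaccharyltransferase (1.58; 0.77 after scaling), and Srprb, a subunit of the receptor for that particle (1.56; 0.72 after scaling), were also higher.

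The list of other stress genes holds targets and factors downstream of PERK, such as Atf4 and Ddit3, together with ER membrane factors of the Creb3 family and other ER stress genes. Of 19 tested rows, 16 were called higher and 1 lower as deposited, and 12 higher and 4 lower after median-of-ratios scaling. Atf4, whose translation PERK favours, was at 59.0, 47.8 and 37.5 TPM in controls against 129, 118 and 124 TPM in the labelled knockout (1.36, adjusted p = 2.2e-05; 0.43, adjusted p = 0.023 after scaling). Ddit3, which encodes CHOP, has 2 rows in the table. They went from 6.78 ± 2.04 to 115.7 ± 14.006 TPM and from 1.81 ± 1.17 to 53.3 ± 13.98 TPM, and both were called higher under both scalings. Nupr1 (1.21 ± 0.220 to 130.4 ± 36.7 TPM) and Atf3 (0.897 ± 0.526 to 29.1 ± 2.88 TPM) were higher under both scalings. Not all genes of the list were higher. Chac1, scattered in controls (1.18, 4.33 and 4.42 TPM), was not called as deposited (-0.58, adjusted p = 0.19) and was called lower after scaling (-1.21, adjusted p = 0.029). Ppp1r15b was likewise not called as deposited (adjusted p = 0.93) and was called lower after scaling (-0.91). Creb3l3, a liver ER membrane transcription factor, was lower, from 177 ± 16.4 to 109 ± 12.9 TPM (-0.70, adjusted p = 0.00038; -1.64 after scaling).

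Heat shock genes of the cytosol and mitochondria were read as 1 list, with Hspd1, Hspe1 and Hspa9 being the mitochondrial ones. As deposited, 13 of 15 were called higher and 1 lower, beside 74.5% and 10.7% of all tested genes. After median-of-ratios scaling 4 were higher and 3 lower, beside 35.1% and 36.6%, the 4 of 15 lying below the share of all tested genes. Hspb1 went from 38.3 ± 7.59 to 162 ± 65.9 TPM, Hsp90aa1 from 69.7 ± 16.9 to 205 ± 35.9 TPM and Hspb8 from 112 ± 8.15 to 345 ± 42.3 TPM. All 3 were called higher under both scalings. The cytosolic HSP90 gene Hsp90aa1 (1.55, adjusted p = 0.00012; 0.62 after scaling) and its ER relative Hsp90b1 thus had opposite signs under both scalings.

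Plasma cells are known for high levels of many of these ER genes, so their markers were read too. Summed over 11 plasma and B cell markers, TPM was 19.8 to 48.8 in controls against 599.9 to 671 in the labelled knockout, most of it Igkc and Igha. As deposited, 6 of 7 tested markers were called higher, near the 74.5% of all tested genes. After median-of-ratios scaling 6 of 7 were higher too, beside 35.1% of all tested genes. Jchain went from 1.49 to 23.4 TPM, Mzb1 from 0.387 to 1.28 TPM and Tnfrsf17 from 0.03 to 0.227 TPM. Mzb1 was called higher under both scalings, and Tnfrsf17 was too low to be tested. The part of these cells in the ER values was not tested.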

How the data were processed

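Liver RNA of 3 control and 3 labelled knockout libraries was analysed from 1 deposited table with 1 TPM value per gene and library. The deposited TPM values sum to 1000000 in each library, so the depth is unknown and no counting interval is given. Named in the submitters' processing notes, without roles, are build mm10 and the tools RSEM, edgeR and STAR 2.6.1c; the strand setting is not given in the sources used here. Groups came from the treatment labels, and 0 columns were left unmapped.

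Genes that reached 1 TPM in 3 or more libraries were fitted as log2(TPM + 1) with limma 3.58.1 (R 4.3.3; intensity trend, robust variances, Benjamini-Hochberg over all tested genes at 0.05). Fold changes are on this scale, which understates changes of low genes. Positions are from GENCODE M21 (GRCm38). Sums and ratios were tested by exact permutation, two-sided. The procedure was tested on simulated data. Python 3.11.15 and matplotlib 3.10.9 were used for tables and figures. Protein sequences were not analysed here.

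The members and all gene lists were chosen with earlier results of these data known. All members are named. Each other list gave up to 3 genes per called direction, with the largest change, a mean of at least 5 TPM and no overlap. Also named were Vmp1, Ero1l, Atf4, Ddit3 and markers, and Chac1 and Ppp1r15b as stress genes that were lower after scaling. Alternatives changed the pseudocount, filter, scaling, variance model, threshold and replicate block, and left out each library.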

Additional observations from a re-analysis of the deposited data

How the results depend on the processing

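All values are log2 fold changes (labelled knockout minus control) or numbers of members. Calls of Atf6b, Hsp90b1, Calr, Ero1lb and Herpud1 were the same under all 14 alternatives. With median-of-ratios scaling, members called higher and lower numbered 1 and 28 in place of 20 and 5. By group these were 1 and 3 for sensors (5 and 0 as deposited), 0 and 9 for chaperones (4 and 3), 0 and 6 for oxidoreductases (3 and 1), 0 and 6 for degradation (4 and 1) and 0 and 4 for translocation (4 and 0). With quantile normalization they were 3 and 20 in all, 1 and 3, 1 and 6, 0 and 3, 1 and 6, and 0 and 2 in the same order of groups. Rescaling without mitochondrially encoded genes, Mup genes and the 20 most abundant genes gave 7 and 11 in all, 3 and 1 for sensors, 1 and 5 for chaperones, 0 higher for oxidoreductases, 1 and 3 for degradation, and 2 and 1 for translocation. Of all tested genes, median-of-ratios scaling called 35.1% higher and 36.6% lower, and quantile normalization 35.3% and 35.4%. Rescaling called 60.6% of all tested genes higher and 17.3% lower. A threshold of 0.01 left 2 chaperones and 1 oxidoreductase higher, beside 69.6% of all tested genes. Without trend and robust variances, 2 degradation genes were lower, beside 10.7% of all tested genes.

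Median-of-ratios scaling reversed the summed TPM of sensors (-0.17), oxidoreductases (-0.71) and translocation genes (-0.42), and rescaling reversed that of oxidoreductases (-0.15). Median-of-ratios scaling also reversed Ern1 (-0.37), Atf6 (-0.80), Mbtps1 (-0.52), Xbp1 (-0.10), Canx (-0.44), Dnajb9 (-0.17), Dnajb11 (-0.80), Hyou1 (-0.84), Creld2 (-0.61), Manf (-0.50), Pdia3 (-0.67), Pdia4 (-0.70), P4hb (-0.66), Txndc5 (-0.59), Edem1 (-0.54), Syvn1 (-0.48), Derl2 (-0.61), Sec61b (-0.45), Sec61a1 (-0.24), Sec63 (-0.66), Ssr1 (-0.0043) and Sec24d (-0.78). Quantile normalization reversed Ern1 (-0.29), Atf6 (-0.73), Mbtps1 (-0.42), Dnajb9 (-0.0059), Dnajb11 (-0.53), Hyou1 (-0.67), Creld2 (-0.44), Manf (-0.17), Pdia3 (-0.076), Pdia4 (-0.40), Txndc5 (-0.33), Edem1 (-0.27), Syvn1 (-0.28), Derl2 (-0.35), Sec63 (-0.34) and Sec24d (-0.66). Rescaling reversed Atf6 (-0.31), Mbtps1 (-0.00011), Dnajb11 (-0.26), Hyou1 (-0.31), Creld2 (-0.078), Pdia3 (-0.12), Pdia4 (-0.15), P4hb (-0.11), Txndc5 (-0.049), Derl2 (-0.061), Sec63 (-0.12) and Sec24d (-0.26). The cause of these changes, other than the scaling itself, was not tested.

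Leaving out 1 library at a time gave 16 to 22 members higher and 4 to 6 lower. Of all tested genes, 68.0% to 76.1% were higher and 9.0% to 12.0% lower in these fits. Oxidoreductases higher numbered 1 to 3, and degradation genes lower 1 to 2. The summed chaperone log2 ratio ranged from -0.10 to 0.032. Over these fits Atf6 ranged from -0.0064 to 0.17, Hyou1 from -0.062 to 0.19 and Pdia6 from -0.14 to 0.14, each changing sign. No within-library ratio changed direction in these fits.

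The replicate numbers are only numbers: deviations of same-numbered libraries correlated at 0.076, 0.04 and -0.115. With a replicate block, 17 members were higher and 5 lower, beside 73.7% and 10.4% of all tested genes, and oxidoreductases higher numbered 1. No read depth is kept in TPM, so the precision of low genes such as Derl3 cannot be given.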

Other observations

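Outside the 35 members, 27 genes of the promoter table also held the stress element in a 300-base window. Of these, 24 were found in the liver table and 9 passed the filter for testing. As deposited, 6 of the 9 were called higher and 2 lower, beside 74.5% and 10.7% of all tested genes, and after median-of-ratios scaling 5 were higher and 3 lower, beside 35.1% and 36.6%. The median of the 9 log2 fold changes was 0.94, and 0.44 after scaling, beside -0.10 and -1.03 for the 10 members that hold the element. This difference was not tested.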
